A study of Mus musculus with 27 samples.

Results

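The Western and the high-fat diet were compared in liver through all genes detected on either diet, which came to 5914 of the 6478 genes tested and of 18194 genes with a probe of their own symbol on the array. A gene counted as detected when its mean log2 value on the Western or on the high-fat diet exceeded log2(100), or 6.64, called the detection level here. Just inside this limit lay Recql, with means of 6.63 on the Western and 6.64 on the high-fat diet, and just outside it Nup37, with 6.62 and 6.64. Male C57BL/6 mice, 10 weeks old, were fed the diets for 3 weeks, and the livers of n = 3 mice per diet were each hybridized to an Affymetrix mouse genome array of their own in a series of 27 arrays and 9 diets. The Western diet, whose arrays are titled Adjusted Calories, held 209 g fat, 346 g sucrose and 2077 mg cholesterol per kg. The high-fat diet held 329 g fat, 175 g sucrose and 54 mg cholesterol per kg, so that the Western diet carried 38.5 times as much cholesterol in less fat. By the study's diet table the Western diet also held less monounsaturated and polyunsaturated fat, less protein and more carbohydrate. Because the diets differed in all of these nutrients at once, the part of any single nutrient in a result cannot be told apart. The AIN-93 purified diet, which is low in fat, was the control of the series and is given beside the main results. All mice were killed in the morning.

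Liver cells hold the amount of cholesterol in their membranes steady by feedback. When sterols are scarce, Scap carries the transcription factor SREBP2 to the Golgi, where it is cut and released to switch on the genes of cholesterol synthesis and uptake, and when sterols are plentiful, the Insig proteins hold it in the endoplasmic reticulum. Oxidized sterols activate the nuclear receptor LXR, which raises transporters that move cholesterol out of the cell and into bile. The related factor SREBP1 drives fatty acid synthesis and desaturation, and polyunsaturated fatty acids are known to lower its activity, while ChREBP, the product of Mlxipl, answers to sugar.

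The deposited values are log2 intensities, and differences are given as log2 Western minus high fat or as a percent of the high-fat level. Of all genes tested, limma called 1.16% higher and 3.10% lower on the Western than on the high-fat diet at an adjusted p under 0.05. Among the detected genes, 72 were higher and 193 lower, out of 1234 at an unadjusted p under 0.05. The median difference of all detected genes was -0.016. The 3 Western arrays did not overlap the 3 high-fat arrays for any called gene except Hnrnph1. Of the 265 called genes, 31 lay below the detection level with every probe on all 3 arrays of 1 diet, and the folds of these genes are lower bounds, taken from the detection level to the mean of the other diet. The adjusted p printed with such a bound tests the fitted difference and not the bound. With these genes at their bound, 36 genes lay more than 2-fold lower and 10 more than 2-fold higher, 13 and 1 more than 4-fold, and 6 and 0 more than 8-fold. A gene detected on the high-fat diet alone could only be called lower, and 30 of the 199 such genes were, as 14 of the 142 genes detected on the Western diet alone were called higher. The count depended on single arrays. It was 22 higher and 120 lower without Western replicate 1, 20 and 69 without Western replicate 2, 175 and 230 without Western replicate 3, 35 and 72 without high-fat replicate 1, 19 and 109 without high-fat replicate 2, and 44 and 116 without high-fat replicate 3. In all of these fits 11 of the genes higher and 55 of the genes lower were called the same way.

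**Figure D1:**
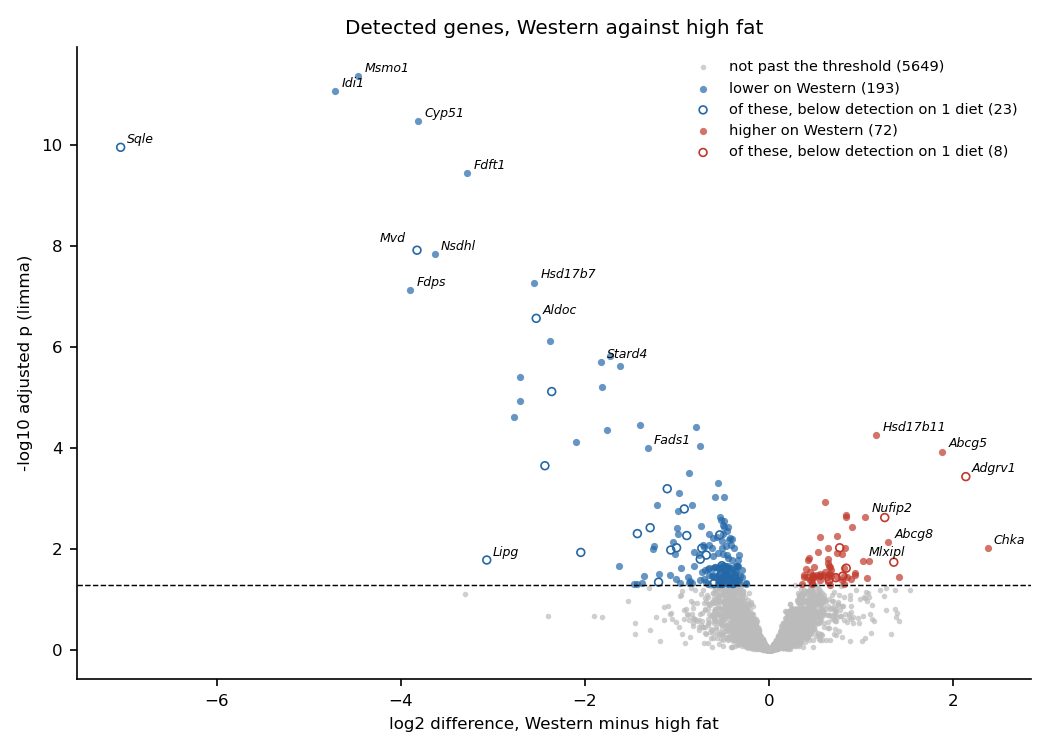
Each point is one of 5914 detected genes, with the log2 difference Western minus high fat on the x axis and -log10 of limma's adjusted p on the y axis, and the dashed line marks an adjusted p of 0.05. Blue marks 193 lower and red 72 higher genes, and hollow points are called genes below detection on 1 diet, whose fitted place on the x axis (Sqle at -7.04, for example) is no measured fold.

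The samples read as liver. All 10 hepatocyte markers were detected, and Alb lay between 16.1 and 16.4 on the 6 arrays. Of the cholangiocyte, T and NK cell, B cell and neutrophil marker lists no member was detected, and no array reached above 3.49 for any of them. The arrays were alike in scale, with 20.0% to 20.8% of probes above the detection level and 34.9% to 37.7% at the shared lowest value of 2.29. Over the detected genes, the mean Euclidean distance was 34.9 between Western and high-fat arrays, 28.1 among Western arrays and 21.4 among high-fat arrays.

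All 17 detected genes of cholesterol synthesis were lower on the Western than on the high-fat diet, with a median difference of -2.77, against 3.26% of all detected genes called lower. With the genes below the detection level raised to that level, the median was -2.70. The first of the lists holds the mevalonate arm, which builds the isoprene units, and all 6 of its detected members were lower, with a median of -3.10, or -2.24 with Mvd and Mvk at their bound. Hmgcs1, which makes the HMG-CoA at the head of the pathway, had log2 values of 9.15, 9.76 and 9.88 on the Western diet and 11.72, 11.47 and 11.89 on the high-fat diet. Its level was 23.4% of the high-fat level (95% confidence interval 15.5 to 35.4, adjusted p = 7.5e-05). Idi1, the isomerase of isopentenyl diphosphate, read 7.52, 7.57 and 7.07 on the Western diet against 12.03, 12.05 and 12.22 on the high-fat diet. It stood at 3.81% of the high-fat level (2.72 to 5.35, adjusted p = 8.6e-12). The arrays of Idi1 lay near the detection level on one diet and among the brighter values of the liver on the other. Fdps, which joins isoprene units into farnesyl diphosphate, was 6.69% of the high-fat level (4.13 to 10.8) and the phosphomevalonate kinase Pmvk 19.3% (13.8 to 27.0). Mvd, the decarboxylase, fell below detection on all 3 Western arrays, with a mean of 3.18 against 7.00 and a level at least 1.28-fold lower (adjusted p = 1.2e-08). Mvk, mevalonate kinase, likewise had means of 4.30 and 6.66, which gives at least 1.01-fold lower (adjusted p = 7.6e-06). High-fat Mvk lay so close to the detection level that without high-fat replicate 1 it was no longer among the genes kept.

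The second list runs from squalene to cholesterol, and all 11 of its members were detected and lower. Sqle, squalene epoxidase, a rate-limiting enzyme of the sterol branch, was near the floor on the Western diet. Its values were 2.67, 2.49 and 2.29 on the Western diet, the last of these the lowest value on the arrays, and 9.80, 9.41 and 9.36 on the high-fat diet. This is a level at least 7.36-fold lower (adjusted p = 1.1e-10), while the fitted difference of -7.04 is measured from values at the floor and is no bound. Fdft1, squalene synthase, was 10.3% of the high-fat level (7.66 to 13.9). Lss, which closes the ring to lanosterol, read 5.83, 6.00 and 5.51 against 8.39, 8.24 and 8.82, or 15.4% (9.66 to 24.5, adjusted p = 1.2e-05). Its fold is uncertain in size, since its probes averaged 6.58 and 4.98 on the Western diet, both below the detection level. Cyp51, which takes a methyl group off lanosterol, read 6.33, 6.64 and 6.85 against 10.50, 10.42 and 10.35, or 7.10% (5.27 to 9.57, adjusted p = 3.3e-11). The dimmer Cyp51 probe averaged 5.84 on the Western diet, below the detection level, and the brighter one gave a difference of -3.70. Msmo1, the C4-methyl sterol oxidase, read 7.93, 8.04 and 8.36 against 12.74, 12.60 and 12.38, or 4.53% (3.36 to 6.11, adjusted p = 4.3e-12). Its partners in removing the C4 methyl groups moved with it. Nsdhl was 8.07% (5.38 to 12.1), and Hsd17b7 17.0% (12.5 to 23.2), the mean of 3 probes of which 1 was above detection on the Western diet. The other enzymes that finish the molecule were lower as well. The reductase Dhcr7 was 14.7% of the high-fat level (8.90 to 24.2), the reductase Tm7sf2 28.4% (21.0 to 38.3), the desaturase Sc5d 48.5% (35.6 to 66.2) and the isomerase Ebp 55.8% (45.3 to 68.7).

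Of the 17 calls, Sc5d lost its own without Western replicate 2 or high-fat replicate 1 (adjusted p up to 0.051), and the other 16 held in each fit without 1 array in which the gene was kept. At least 15 of the 17 were called in every alternative in which all were tested, and 14 of 14 under a filter set on the mean of the 6 arrays, which is blind to the diet. Against the AIN-93 control, for which limma called 8.35% of genes on the Western and 8.92% on the high-fat diet, the high-fat level lay higher for several of them. Msmo1 was 287% of control under high fat with an adjusted p of 0.00033, and 13% under the Western diet (adjusted p = 4.2e-09). Hsd17b7 was 275% under high fat (adjusted p = 0.00044) and 46.8% under the Western diet (adjusted p = 0.0031), and Fdft1 193% (adjusted p = 0.0070) and 19.9% (adjusted p = 2.4e-07). For Idi1 the same levels were 166% (adjusted p = 0.053) and 6.34% (adjusted p = 5.1e-10), and for Dhcr7 116% (adjusted p = 0.74) and 17.0% (adjusted p = 7.6e-05). Both comparisons share the 3 control arrays.

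**Figure D2:**
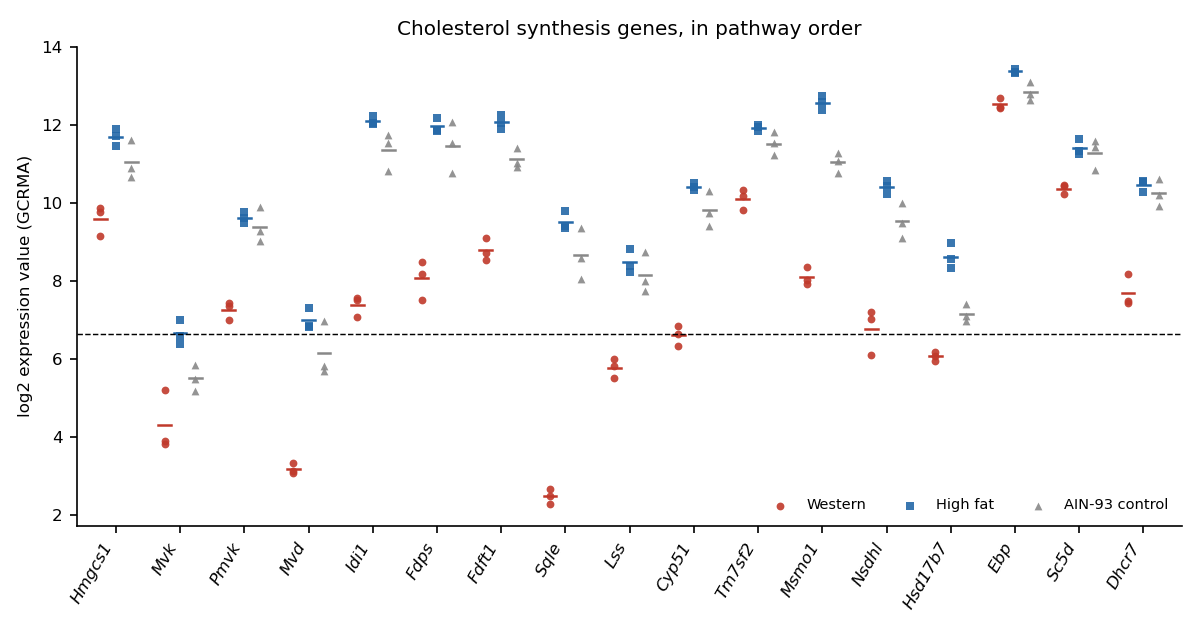
Log2 expression values (GCRMA, y axis) of the 17 detected genes of cholesterol synthesis in pathway order (x axis), with 1 point per array (circles Western, squares high fat, triangles AIN-93 control), a bar at the mean of 3 and a dashed line at the detection level. In every gene all 3 Western arrays lie below all 3 high-fat arrays, from Ebp with means of 12.54 and 13.38 to Sqle with 2.48 and 9.52.

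Because these genes moved together, the promoters of some of them are shown, as the 250 bases before the RefSeq transcript start in build GRCm38.p6. A promoter was in the table used here for 14 of the 17 genes, and not for Sqle, Fdps and Fdft1. All promoters shown hold a CCAAT box, while those not shown include windows of Pmvk and Dhcr7 without a match to any motif. Capitals mark matches on either strand to the CCAAT box bound by NF-Y (CCAAT), to a consensus of the sterol regulatory element bound by SREBP (TCACNCCAC) and to the E-box (CACGTG). Matches of different motifs did not overlap in the sequences shown.
Hmgcs1, chr13:119690101-119690350, plus strand: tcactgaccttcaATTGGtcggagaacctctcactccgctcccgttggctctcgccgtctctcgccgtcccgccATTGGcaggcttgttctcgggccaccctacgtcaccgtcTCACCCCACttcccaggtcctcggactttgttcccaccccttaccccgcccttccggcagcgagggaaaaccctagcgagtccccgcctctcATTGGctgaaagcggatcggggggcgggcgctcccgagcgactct
Mvd, chr8:122443423-122443672, minus strand: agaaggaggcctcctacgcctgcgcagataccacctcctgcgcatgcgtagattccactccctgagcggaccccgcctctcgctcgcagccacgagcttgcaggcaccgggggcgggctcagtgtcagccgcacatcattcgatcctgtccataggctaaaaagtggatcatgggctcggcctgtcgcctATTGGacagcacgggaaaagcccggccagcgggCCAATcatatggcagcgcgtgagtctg
Idi1, chr13:8885356-8885605, plus strand: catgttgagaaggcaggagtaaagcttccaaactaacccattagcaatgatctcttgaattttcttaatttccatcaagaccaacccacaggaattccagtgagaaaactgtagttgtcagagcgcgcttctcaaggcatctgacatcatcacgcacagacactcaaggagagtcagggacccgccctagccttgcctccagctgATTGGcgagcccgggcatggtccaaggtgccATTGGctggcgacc
Msmo1, chr8:64733579-64733828, minus strand: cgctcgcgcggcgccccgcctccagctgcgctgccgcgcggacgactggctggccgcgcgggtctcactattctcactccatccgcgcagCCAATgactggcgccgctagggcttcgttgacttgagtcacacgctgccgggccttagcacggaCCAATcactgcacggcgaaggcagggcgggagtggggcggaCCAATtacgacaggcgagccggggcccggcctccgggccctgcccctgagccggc
Nsdhl, chrX:72918271-72918520, plus strand: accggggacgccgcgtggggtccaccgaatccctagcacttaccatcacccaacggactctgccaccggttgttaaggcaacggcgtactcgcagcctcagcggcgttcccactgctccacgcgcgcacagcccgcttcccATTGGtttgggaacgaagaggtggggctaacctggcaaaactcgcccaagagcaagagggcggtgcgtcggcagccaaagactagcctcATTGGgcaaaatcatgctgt
All 14 genes held at least 1 CCAAT box in a promoter of theirs, as did 40.6% of the 4877 detected genes with a promoter and 37.5% of all 27025 genes of the table. Counted by promoter, 14 of the 17 promoters of these genes held it (82.4%), against 35.3% of the promoters of detected genes. The box occurred in 59.8% of the 169 genes lower on the Western diet and in 43.1% of the 58 genes higher. TCACNCCAC occurred in 7.14% of the 14 genes, which is Hmgcs1, against 1.29% of detected genes, and CACGTG in 3 of them, or 21.4%, against 10.8%. These shares describe letters in a short window, a gene with several promoters counts when any of them matches, and a match is not evidence of binding in these livers.

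The proteins that sense and move sterols followed in part. Of 12 detected members of the list for SREBP2 control and the LDL receptor pathway, 5 were lower (41.7%) and 0 higher, with a median of -0.30. Of all detected genes, 3.26% were called lower and 1.22% higher. Insig1, which anchors the SREBP escort Scap in the endoplasmic reticulum and is itself an SREBP target, read 11.80, 11.03 and 11.83 on the Western diet and 12.79, 12.74 and 12.90 on the high-fat diet. It was 41.7% of the high-fat level (28.2 to 61.8, adjusted p = 0.0099). Stard4, a carrier of cholesterol between membranes, was 28.1% (21.3 to 37.2, adjusted p = 2.0e-06). Tmem97, the sigma-2 receptor that binds the lysosomal cholesterol exporter NPC1, was 30.2% (23.3 to 39.0, adjusted p = 1.5e-06). Npc2, which hands cholesterol to NPC1 in the lysosome, was 59.8% (48.8 to 73.1, adjusted p = 0.0035). Aacs, which activates acetoacetate for lipid synthesis, was below detection on all Western arrays, with a mean of 5.65 against 7.70 and a level at least 2.07-fold lower (adjusted p = 0.012). Scap did not pass the threshold at 79.2% of the high-fat level (adjusted p = 0.19), nor did Insig2, the Insig1 relative, at 148% (adjusted p = 0.17). The call of Insig1 was lost without Western replicate 2, the lowest of its 6 values, and that of Aacs without Western replicate 1 or high-fat replicate 1, with adjusted p up to 0.0858 and 0.0813.

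Sterol exporters moved the other way. Of 11 detected LXR targets and efflux genes, 3 were higher and 1 lower, against 1.22% and 3.26% of all detected genes. Abcg5 and Abcg8 encode the paired transporters that pump sterols into bile. Abcg5 read 11.47, 10.84 and 11.06 on the Western diet against 9.15, 9.19 and 9.38 on the high-fat diet, or 369% of the high-fat level (251 to 542, adjusted p = 0.00012). Abcg8 read 9.73, 9.10 and 9.27 against 7.96, 8.00 and 8.26, or 245% (167 to 359.5, adjusted p = 0.0073). The Western arrays lay above the high-fat arrays for both. Abca1, which loads cholesterol onto apolipoprotein A-I, read 12.76, 12.53 and 12.53 against 11.94, 12.05 and 12.01, or 152% (131 to 177, adjusted p = 0.0011). The 3 transporters were called in each fit that left out 1 array. Srebf1, the LXR target that encodes SREBP1, was 185% (116 to 295) and missed the threshold (adjusted p = 0.13), with Western values of 12.90, 11.77 and 12.35 all above high-fat values of 11.25, 11.55 and 11.55. The lower member was Pltp, the phospholipid transfer protein of plasma, at 36.2% (19.8 to 66.1, adjusted p = 0.049), a call that held without Western replicate 3 but was lost without each of the other 5 arrays (adjusted p up to 0.188). Apoe, Nr1h3, Scarb1, Lpcat3, Abcb4 and Mylip did not pass.

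Abcg5 and Abcg8 lie head to head on chromosome 17 and their upstream windows share 109 bases on opposite strands. The Abcg8 window is shown as the counterpart of the promoters above, with the same marks.
Abcg8, chr17:84682871-84683120, plus strand: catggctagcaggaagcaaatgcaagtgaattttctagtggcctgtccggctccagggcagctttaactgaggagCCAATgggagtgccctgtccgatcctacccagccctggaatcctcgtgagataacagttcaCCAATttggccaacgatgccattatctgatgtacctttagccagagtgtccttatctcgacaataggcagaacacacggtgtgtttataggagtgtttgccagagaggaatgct
It held 2 CCAAT boxes, both outside the stretch shared with Abcg5, and no match to the other motifs.

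The listed genes of the route from cholesterol to bile acids gave no call. Cyp2c70, which makes muricholic acids and is not on the list, was called higher and is given further below. Of 19 detected genes of bile acid synthesis and transport, 0 were called in limma and 2 had an unadjusted p under 0.05, with a median of 0.03. Cyp7a1, the rate-limiting enzyme of the classic route, varied among mice of one diet, with values of 9.09, 7.79 and 6.41 on the Western diet and 9.01, 9.87 and 8.29 on the high-fat diet. Its level of 40.7% (12.4 to 133, adjusted p = 0.40) leaves a wide interval. Cyp8b1, which sets the share of cholic acid, was 61.7% (34.3 to 111, adjusted p = 0.35), the mitochondrial sterol hydroxylase Cyp27a1 82.5% (adjusted p = 0.28), and the repressor Nr0b2, or SHP, 157% (90.3 to 272, adjusted p = 0.36). Abcb11, the bile salt export pump, was 78.0% (66.6 to 91.3, adjusted p = 0.068).

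Genes for desaturation and elongation of fatty acids were lower in part. Of 11 detected desaturases and elongases, 5 were lower (45.5%) and 0 higher, against 3.26% and 1.22% of all detected genes. The median of the list was -0.32. Fads1 and Fads2, the delta-5 and delta-6 desaturases that make long polyunsaturated fatty acids, differed most. Fads1 read 10.83, 10.69 and 11.01 on the Western diet against 12.08, 12.19 and 12.22 on the high-fat diet, or 40.1% (30.8 to 52.3, adjusted p = 9.8e-05). Fads2 read 9.18, 9.02 and 9.68 against 10.40, 10.63 and 10.61, or 42.0% (28.8 to 61.5, adjusted p = 0.0086). Tecr and Hacd3, which reduce and dehydrate the growing acyl chain, were 49.8% (37.8 to 65.7) and 69.8% (60.8 to 80.1). The elongase Elovl1 was 63.0% (48.0 to 82.6, adjusted p = 0.048). The delta-9 desaturase Scd1, which makes monounsaturated fat, lay on the other side at 163% (107 to 249), with all 3 Western arrays above the high-fat arrays but an adjusted p of 0.19. Elovl5, Elovl2, Elovl3 and Elovl6 did not pass. The call of Fads2 was lost without Western replicate 2 (adjusted p up to 0.0632), and that of Elovl1 held only without Western replicate 3 (up to 0.281) and was lost with the median of its 3 probes (67.7%, adjusted p = 0.099).

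Fatty acid synthesis itself was mixed. Of 17 detected members of the de novo lipogenesis list, 1 was higher (5.88%) and 2 lower (11.8%), against 1.22% and 3.26% of all detected genes. Mlxipl, which encodes ChREBP, read 10.52, 10.72 and 9.95 on the Western diet and 9.63, 9.02 and 9.49 on the high-fat diet, or 202% (144 to 284, adjusted p = 0.017). The citrate carrier Slc25a1, which exports citrate from mitochondria as the carbon source of lipid synthesis, was 50.6% (40.1 to 63.8, adjusted p = 0.00079), and Acss2, which turns acetate into acetyl-CoA, 39.1% (23.5 to 65.2, adjusted p = 0.034). The core enzymes did not pass and spread widely on the Western diet. Fasn read 10.66, 9.23 and 10.93 against 11.26, 11.14 and 11.24, or 52.0% (19.4 to 139, adjusted p = 0.47), and Acaca was 95.4% (43.7 to 208, adjusted p = 0.96). Thrsp was 50.6% (22.2 to 115, adjusted p = 0.35). Of 15 detected genes of sugar handling and glycolysis, 0 were called in limma, 5 at an unadjusted p under 0.05. Pklr, liver pyruvate kinase and a ChREBP target, read 8.40, 8.72 and 8.50 against 7.56, 7.39 and 7.36, or 214% (109 to 422, adjusted p = 0.19). The groups of Pklr did not overlap. The call of Mlxipl was lost without Western replicate 1 or 2 or high-fat replicate 2 (adjusted p up to 0.11), and that of Acss2 without every array but Western replicate 3 (up to 0.12).

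**Figure D3:**
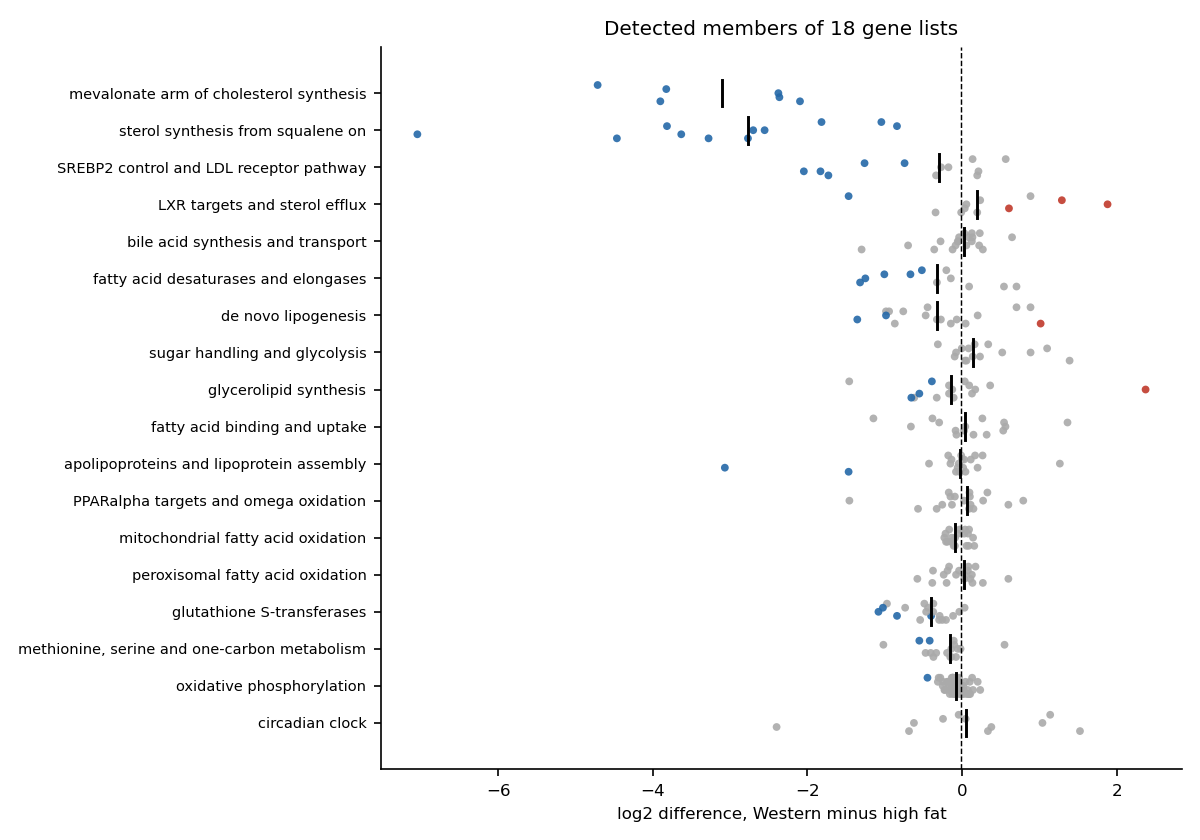
Each point is a detected member of one of 18 gene lists (y axis), placed by its log2 difference Western minus high fat (x axis), with blue for called lower, red for called higher and grey for not past the threshold. Black bars mark medians of fitted differences, at -3.10 for the mevalonate arm (-2.24 with members below detection at their bound), -2.77 from squalene on and 0.20 for LXR targets and sterol efflux, and the dashed line marks the median of all detected genes at -0.016.

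Phospholipid genes were called in both directions. Of 16 detected genes of glycerolipid synthesis, 1 was higher (6.25%) and 3 lower (18.8%), against 1.22% and 3.26% of all detected genes. Chka, choline kinase, which starts phosphatidylcholine synthesis from choline, was higher. It read 8.14, 8.08 and 8.92 on the Western diet and 6.14, 5.38 and 6.50 on the high-fat diet, or 519% (249 to 1078, adjusted p = 0.0093). The fold is uncertain in size, since 2 of its 3 probes averaged below the detection level on the high-fat diet (differences of 2.76 and 2.56), and the brightest probe gave 349% (adjusted p = 0.043). Pcyt1a, which runs the next step of that route, was 76.3% (65.1 to 89.5, adjusted p = 0.049). Pemt, which makes phosphatidylcholine by methylation instead, was 68.2% (55.0 to 84.7, adjusted p = 0.040) and the phosphatidylserine synthase Ptdss2 63.5% (52.7 to 76.5, adjusted p = 0.0051). The call of Chka was lost without high-fat replicate 2 (adjusted p up to 0.0607). That of Pemt held only without Western replicate 3 (up to 0.134), and that of Pcyt1a only without Western replicate 3 or high-fat replicate 3 (up to 0.206), and not with the median of its 3 probes (adjusted p = 0.27).

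Fat oxidation, the main alternative fate of dietary fat, gave no call. Limma called 0 of 21 detected genes of mitochondrial fatty acid oxidation, 0 of 19 of peroxisomal oxidation and 0 of 18 PPARalpha targets, with 0, 5 and 1 at an unadjusted p under 0.05. The mitochondrial genes lay between -0.23 and 0.16 in log2 difference. Cpt1a, which admits long fatty acids to mitochondria, was 93.8% (65.1 to 135, adjusted p = 0.88). Cyp4a14, an omega-hydroxylase and PPARalpha target, read 9.75, 11.75 and 11.58 against 12.46, 12.38 and 12.62, or 36.4% (7.73 to 172, adjusted p = 0.48), and passed against control on both diets (adjusted p = 0.0066 and 0.0013), where control values were 6.03, 8.26 and 3.79, below the detection level on 2 of 3 arrays. Ehhadh of the peroxisomal pathway was 152% (115 to 199.9, adjusted p = 0.080).

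Genes for fat uptake, storage and export held 3 calls, against 1.22% of all detected genes called higher and 3.26% called lower. The lists for fatty acid binding and uptake (15 detected) and for lipid droplets and lipolysis (11 detected) held 1 of these between them, with 5 and 3 members at an unadjusted p under 0.05. This was Hsd17b11, a dehydrogenase of the lipid droplet surface, which read 11.46, 11.13 and 11.63 against 10.43, 10.17 and 10.14, or 223% (179 to 279, adjusted p = 5.5e-05), while the brighter of its 2 probes alone gave 139% (adjusted p = 0.043). The droplet coat gene Plin2 was 88.8% (63.3 to 125) and the fatty acid carrier Fabp5 45.2% (20.5 to 99.8, adjusted p = 0.25), while Fabp5 was 4.43% of control on the Western diet (adjusted p = 2.0e-05) and 9.80% on the high-fat diet (adjusted p = 0.0012). The uptake receptor Cd36 spread from 6.92 to 10.33 among Western mice and gave 125% (56.4 to 276). Lpl, lipoprotein lipase, was 258% (142 to 466, adjusted p = 0.064), all Western arrays being above all high-fat arrays. Of 9 adipocyte markers 3 were detected, Lpl, Fabp4 and Car3, with a summed linear level of 10526 to 20641 on the Western and 6508 to 9628 on the high-fat arrays, while Adipoq reached no more than 2.43 and Lep 2.29 on any of the 6 arrays. Most of this sum was Car3, which lay between 12.58 and 14.27 in log2 on the 6 arrays, against at most 9.05 for Lpl. The part of adipocyte RNA in the level of Lpl was not tested. Among 20 apolipoprotein and lipoprotein genes, 2 were lower and 0 higher. The endothelial lipase Lipg read 4.37, 3.57 and 4.31 against 6.14, 7.86 and 7.46, at least 1.42-fold lower (means 4.08 and 7.15, adjusted p = 0.016), and Pltp was the other. Apoa4 was 240.4% (140.2 to 412) and missed the threshold (adjusted p = 0.059). The call of Lipg was lost without Western replicate 2 or high-fat replicate 2 or 3 (adjusted p up to 0.0868).

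Glutathione S-transferases, which attach glutathione to reactive compounds, were mostly lower in value. Of 19 detected members 18 had a difference below 0, against 3134 of the 5914 detected genes, with a median of -0.40. Of the 19 members 4 were called lower (21.1%), against 3.26% of all detected genes. Gstm6 read 8.15, 8.52 and 8.89 on the Western diet against 9.49, 9.50 and 9.64 on the high-fat diet, or 49.2% (35.5 to 68.3, adjusted p = 0.013). Gstt3 was 47.3% (31.5 to 70.9, adjusted p = 0.033), Gstt2 55.8% (39.7 to 78.5, adjusted p = 0.047) and Gsta3 75.8% (64.4 to 89.2, adjusted p = 0.048). None of the 4 passed against control on the Western diet, and each was above control on the high-fat diet. Gstt3 was 141% (adjusted p = 0.29) and 299% of control (adjusted p = 0.0020), and Gstm6 95.2% (adjusted p = 0.89) and 193% (adjusted p = 0.012). These genes belong to families of close paralogs whose probes can share signal. The call of Gsta3 was lost with the brighter of its 2 probes (73.6%, adjusted p = 0.12). The calls were fragile, with 2 left when arrays were centred on their medians, 0 without Western replicate 1 or 2, 1 without any 1 of the high-fat arrays and 6 without Western replicate 3. Gclc, the rate-limiting enzyme of glutathione synthesis, was 144% (111 to 186, adjusted p = 0.10), and Gpx1 101% (89.9 to 113). The 13 detected genes of glutathione synthesis and the Nrf2 response held 0 calls in limma and 3 at an unadjusted p under 0.05. Among 21 detected CAR and PXR targets, Cyp3a11 alone was called, at 175% (126 to 243, adjusted p = 0.048), and lost the call without every array but high-fat replicate 3 (up to 0.206). This single call is 4.76% of the list, against 1.22% of all detected genes called higher.

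Most one-carbon genes also lay below 0. Of 17 detected genes of methionine, serine and one-carbon metabolism 16 had a difference below 0, against 3134 of the 5914 detected genes. The list held 2 calls, both lower (11.8%, against 3.26% of all detected genes). These were Pemt and Mthfd1, the trifunctional folate enzyme, which was at 74.8% (66.0 to 84.9, adjusted p = 0.0083). The brightest of the 3 Mthfd1 probes alone gave 98.1% (adjusted p = 0.93), and the call was also lost in the fit of the 6 arrays alone (adjusted p = 0.087). Gnmt, the main consumer of S-adenosylmethionine, was 79.4% (68.2 to 92.3, adjusted p = 0.075). Of 32 detected genes of the urea cycle and amino acid catabolism, 1 was lower, Haao of tryptophan breakdown, at 73.1% (62.3 to 85.8, adjusted p = 0.024). Cps1, the entry enzyme of the urea cycle, was 104% (91.3 to 119). Of 70 detected subunits of oxidative phosphorylation 56 lay below 0, with a median of only -0.08, and 1 was called, Ndufb10 of complex I, at 73.4% (63.4 to 85.0, adjusted p = 0.015). These single calls are 3.12% and 1.43% of their lists, no more than the 3.26% of all detected genes. The call of Haao was lost without Western replicate 1 or 2 or high-fat replicate 1 or 3 (adjusted p up to 0.113), and that of Ndufb10 without Western replicate 2 or high-fat replicate 3 (up to 0.0858).

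Markers of Kupffer cells, the resident macrophages of liver sinusoids, were lower in value on the Western diet. Of 16 markers 12 were detected, and 11 of these had a difference below 0, against 3134 of the 5914 detected genes. The median was -0.82 (-0.71 with members below detection at their bound). Of the 12 markers 2 were called lower, or 16.7%, against 3.26% of all detected genes. Clec4f, a lectin of Kupffer cells, read 7.76, 7.36 and 7.71 on the Western diet against 9.38, 8.59 and 8.45, or 43.5% (28.0 to 67.7, adjusted p = 0.031). C1qa, a chain of complement C1q and the 1 call among 37 detected complement and coagulation genes, read 7.47, 6.41 and 7.30 against 8.94, 8.25 and 8.13, or 38.3% (21.9 to 66.9, adjusted p = 0.046). The summed linear level of the 12 markers was 2794 to 3907 on the Western arrays, 4525 to 7726 on the high-fat arrays and 4597 to 5840 on the control arrays. In whole liver, fewer cells of a type and less RNA per cell cannot be told apart. High-fat replicate 1 was the highest array for 11 of the 12, and without it the median was -0.53. No Kupffer marker was called without this array, without high-fat replicate 2 or without Western replicate 1 or 2, where the adjusted p reached 0.158 for Clec4f and 0.239 for C1qa. Timd4 and Marco were not detected. The MHC class II genes H2-Aa, H2-Ab1, H2-Eb1 and Cd74 had fitted differences between -1.54 and -1.06, and none passed. Cd74 was below detection on all Western arrays and at least 1.11-fold lower. H2-Aa, with the largest difference, was 34.5% (16.2 to 73.4, adjusted p = 0.10). The part of the Kupffer markers in these values was not tested. Of 7 detected genes of macrophage activation and MHC class II, with a median of -1.06 (-0.61 at the bound), limma called 0, with 4 at an unadjusted p under 0.05, and of 9 markers of monocyte-derived macrophages 1 was detected. The markers of sinusoidal endothelium (12 detected, median -0.16) and of stellate cells and fibroblasts (9 detected, median -0.05) held 0 calls in limma and 0 at an unadjusted p under 0.05. Of 17 detected interferon response and MHC class I genes 16 had a difference below 0, against 3134 of the 5914 detected genes. Tapbp, which loads peptides on class I, was called at 68.9% (55.3 to 85.8, adjusted p = 0.048), a call lost without any 1 of the 6 arrays (up to 0.148).

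**Figure D4:**
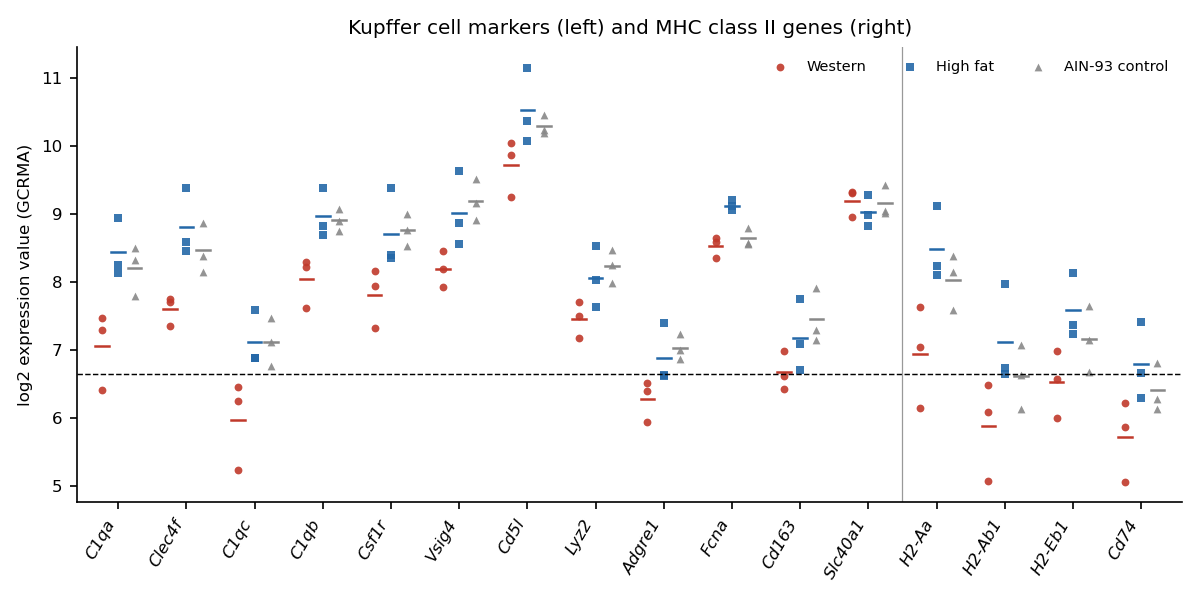
Log2 expression values (GCRMA, y axis) of the 12 detected Kupffer cell markers, ordered by difference, and of 4 MHC class II genes (x axis), with 1 point per array (circles Western, squares high fat, triangles AIN-93 control), a bar at the mean of 3 and a dashed line at the detection level. High-fat replicate 1 stands highest in most genes, and Slc40a1 alone among the 12 has its Western mean above its high-fat mean.

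Several large differences lay outside the lipid lists. Rdh11, a retinal reductase, read 6.29, 6.81 and 6.63 on the Western diet against 9.38, 9.11 and 9.34 on the high-fat diet, or 15.4% (9.99 to 23.7, adjusted p = 3.8e-06). The dimmer Rdh11 probe averaged 5.43 on the Western diet, below the detection level, and the brighter one gave a difference of -2.50. Aldoc, the aldolase C isozyme, was below detection on all Western arrays, with a mean of 5.64 against 8.17 and a level at least 2.89-fold lower (adjusted p = 2.7e-07). Fmn1, a formin that nucleates actin filaments, had means of 4.27 and 6.71, at least 1.05-fold lower (adjusted p = 0.00022). Hamp2, a hepcidin paralog and the 1 call among 24 detected acute phase genes and metallothioneins, was 32.3% (18.4 to 56.6, adjusted p = 0.021), a call lost without Western replicate 1 or 2 or high-fat replicate 1 or 3 (up to 0.0982). The call is 4.17% of that list, against 3.26% of all detected genes called lower.

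On the higher side, Adgrv1, an adhesion G protein-coupled receptor, read 7.53, 8.08 and 7.62 against 5.39, 5.64 and 5.79, all below detection, at least 2.14-fold higher (means 7.74 and 5.61, adjusted p = 0.00036). It was 151% of control on the Western diet (adjusted p = 0.28) and at least 1.41-fold lower than control on the high-fat diet (means 7.14 and 5.61, adjusted p = 0.0066). Among the other large differences, Raly, an RNA-binding protein, was at least 1.95-fold higher (means 7.61 and 6.35, adjusted p = 0.0024). It stood at 80.1% of control on the Western diet (adjusted p = 0.43). Under high fat Raly was at least 2.44-fold lower than control (means 7.93 and 6.35, adjusted p = 0.00044). Nufip2 was 206% (157 to 271, adjusted p = 0.0023), the splicing factor Srsf5 213% (148 to 306, adjusted p = 0.017) and the helicase Ddx6 of mRNA decay 191% (135 to 271, adjusted p = 0.033). Clpx, which unfolds proteins for the mitochondrial Clp protease, was 266% (155 to 458, adjusted p = 0.036), the chromatin reader Brd2 190.4% (135 to 268, adjusted p = 0.030), and Shfl 209% (138 to 315, adjusted p = 0.038). Carmil1, a regulator of actin capping, was at least 1.31-fold higher (means 7.04 and 5.68, adjusted p = 0.018). For Nufip2, Srsf5 and Ddx6 the control mean lay between the Western and high-fat means, at 7.51, 9.54 and 9.07. So it did for Clpx, Brd2, Shfl and Carmil1, at 9.22, 8.27, 8.08 and 6.94. Nisch had 4 kept probes whose differences ran from -0.10 to 2.11, and its call at 187% (146 to 239, adjusted p = 0.0036) rests on the probes that rose. Adgrv1, Raly, Nufip2 and Nisch were called in each fit that left out 1 array. Clpx and Ddx6 were called in none of these fits (adjusted p up to 0.165 and 0.0982), and the brightest probe of each gave 164% (adjusted p = 0.084) and 108% (adjusted p = 0.65). Shfl was called only without Western replicate 3 (up to 0.217), Srsf5 not without Western replicate 1 or 2 or high-fat replicate 2 (up to 0.0892), and Brd2 and Carmil1 not without Western replicate 1 or high-fat replicate 2 or 3 (up to 0.139 and 0.0916).

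The place of both diets among the 9 of the series differed by gene, given here as means with no test. Sqle had a mean of 2.48 on the Western diet, 2.73 on the atherogenic diet and 7.42 to 9.65 on the other 7, and Idi1 7.39, 7.32 and 10.35 to 12.10. Both therefore separated the Western and atherogenic diets from all others, the high-fat diet among them. Abcg5 was 11.12 on the Western diet, 12.53 on the atherogenic diet, 10.78 under diet restriction and 8.74 to 9.24 on the other 6. For Chka it was the high-fat diet that stood low, with 6.00, next to diet restriction with 4.77, while the other 7 diets had 7.02 to 9.20.

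**Figure D5:**
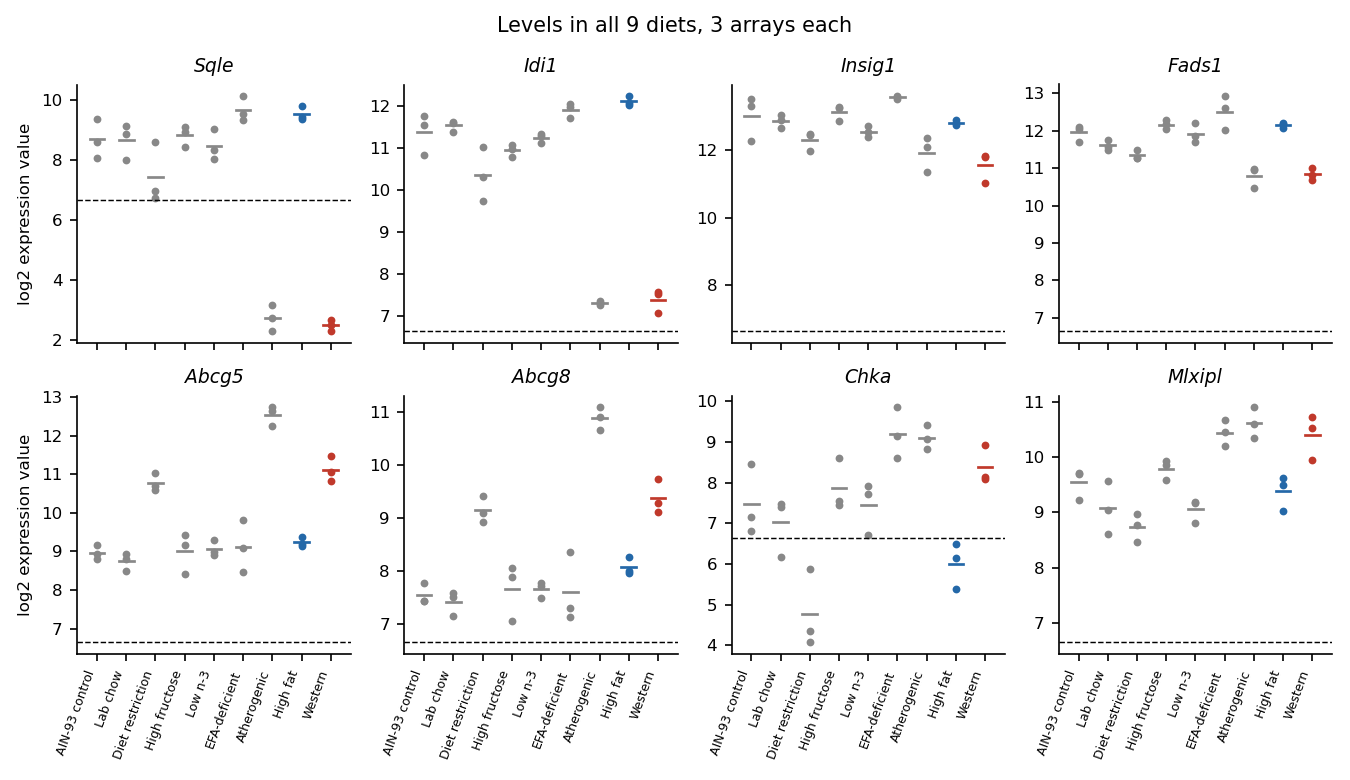
Log2 expression values (y axes) of 8 genes on all 9 diets (x axes), with 1 point per array, a bar at the mean of 3, the detection level dashed, and Western in red and high fat in blue. Sqle and Idi1 had means of 2.48 and 7.39 on the Western diet and 9.52 and 12.10 on the high-fat diet, while Abcg5 and Chka had 11.12 and 8.38 on the Western and 9.24 and 6.00 on the high-fat diet.

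Clock genes held no call, though single members differed widely. Of 11 detected, limma called 0 and 3 had an unadjusted p under 0.05. Arntl, which encodes the activator BMAL1, read 6.80, 7.22 and 7.53 on the Western diet against 6.23, 4.25 and 6.49 on the high-fat diet, with an adjusted p of 0.063. Its output gene Dbp read 7.63, 6.95 and 5.24 against 8.44, 9.67 and 8.90, with an adjusted p of 0.21. Mice were killed within a window of morning hours, and the time of each mouse was not analysed here. The other lists with 0 calls in limma were gluconeogenesis and FOXO outputs (12 detected), endoplasmic reticulum stress (23), collagen and matrix (7), cell cycle and DNA replication (6), cytosolic ribosomal proteins (37) and genes higher in male liver (20), with 1, 4, 1, 1, 3 and 3 members at an unadjusted p under 0.05. Of 31 detected proteasome subunits Psmd4 was lower, at 68.6% (55.2 to 85.2, adjusted p = 0.044), and of 18 heat shock chaperones Hspa4 was higher, at 140.4% (118 to 167, adjusted p = 0.023). These single calls are 3.23% and 5.56% of their lists, against 3.26% of all detected genes called lower and 1.22% called higher. Of genes higher in female liver 2 were detected and neither was called. The call of Psmd4 held only without Western replicate 3 (adjusted p up to 0.185), and that of Hspa4 was lost without Western replicate 1 or 2 or high-fat replicate 2 or 3 (up to 0.119) and with the median of its 3 probes (118%, adjusted p = 0.23).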

How the data were processed

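Liver RNA of 27 mice was hybridized to Affymetrix mouse genome arrays, 3 per diet, of which 6 are compared here. The authors corrected and normalized the arrays with GCRMA, and the deposited values are on the log2 scale. GCRMA pulls dim probes toward a shared floor, and values at the floor show too little spread. The size of a difference of dim genes is therefore uncertain in either direction. Groups were taken from the labels. Probes with 1 symbol in the platform table and a mean over log2(100) on 1 diet or more, the limit of the study's methods, were kept (9523 probes) and averaged per gene.

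With R 4.3.3, limma 3.58.1 was used to fit Western minus high fat over the 27 arrays together, so that the other diets share in the estimate of spread, with p adjusted by Benjamini and Hochberg over 6478 genes at 0.05. Where every probe of a gene lay below log2(100) on the 3 arrays of a diet, the other mean over that level is a lower bound. Intervals are 95% confidence intervals. The fit was tested on simulated data. Figures and tables were made in Python 3.11.15 with numpy 2.4.6, pandas 2.3.3 and matplotlib 3.10.9.

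The detected genes and the 35 gene lists and 12 marker lists, written from textbook knowledge, were chosen with earlier results of these data known, so counts over lists carry no test. Named genes are up to 15 called genes per direction by size whose arrays do not overlap, up to 5 called genes per list, a fixed set of lipid genes, and list members that show what the rest of a pathway did. Alternatives were other filters, adjustments, fits, priors, scalings, probe summaries, replicate blocks and each array left out. Probes with several symbols or none (932 and 9211 of 45101) and genes without a probe of their own symbol were not used here. Promoters are RefSeq sequences of GRCm38.p6.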

Additional observations from a re-analysis of the deposited data

How the results depend on the processing

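Among the named genes past the threshold, direction held under all alternatives run except for Nisch, whose difference was -0.012 with the filter on the mean of the 6 arrays and with the probe of the highest mean, since a single probe that did not rise then stands for the gene. Of the 26 named genes not past the threshold, 8 turned sign under at least 1 alternative, among them Elovl6, which ran from -0.39 to 0.25 and was above 0 with the median of probes and with the brightest probe. Counts of calls moved more. The 72 genes higher and 193 lower became 287 and 428 with arrays weighted, where Western replicate 3 had a weight of 0.457, 32 and 68 in a fit of the 6 arrays alone, and 18 and 92 with no filter on low values. The fit of the 6 arrays alone ended the calls of Brd2, C1qa, Clec4f, Cyp3a11, Elovl1, Gsta3, Gstt3, Haao, Hamp2, Hnrnph1, Hspa4, Mlxipl, Mthfd1, Ndufb10, Nisch, Nufip2, Pcyt1a, Pemt, Pltp, Psmd4, Ptdss2, Shfl and Srsf5, and of Cyp2c70, Il18 and Lbr among the genes given below. Leaving out 1 array gave 19 to 175 genes higher and 69 to 230 lower. The other scalings, filters, priors and probe summaries kept both counts within 1.5 times. Replicate numbers are shared across diets, but same-numbered arrays did not deviate together (r = 0.021, 0.021 and -0.015), so no pairing was used. With replicate number as a block the counts were 72 and 186 over all arrays and 10 and 38 over the 6 arrays alone. Over the named genes, 231 of 1672 comparisons with an alternative lost a call, 9 gained one and 2, both of Nisch, turned a called direction. The number of arrays limits precision, and values near the floor carry no order.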

Other observations

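Further genes, chosen after their values were seen, are given as values. Erg28, a scaffold for sterol C4 demethylation, was 32.4% of the high-fat level (95% confidence interval 25.2 to 41.7, limma adjusted p = 2.3e-06), and Lbr, the lamin B receptor, which also reduces sterols, 56.6% (43.7 to 73.4, adjusted p = 0.011). Cyp1a2, which metabolizes caffeine and aromatic amines, read 12.95, 12.45 and 12.71 on the Western diet against 13.95, 14.09 and 13.73 on the high-fat diet, or 43.0% (31.8 to 58.2, adjusted p = 0.0014). It was 137% of control on the Western diet (adjusted p = 0.19) and 317% on the high-fat diet (adjusted p = 0.00018). The cytokine gene Il18 was 67.6% of the high-fat level (57.4 to 79.6, adjusted p = 0.0058). Slc30a10, a manganese exporter of liver and intestine, was 178% (144 to 221, adjusted p = 0.0021), and Cyp2c70, which makes muricholic acids, 179.7% (129.8 to 249, adjusted p = 0.036). The call of Lbr was lost without Western replicate 2 or high-fat replicate 1 (adjusted p up to 0.0745), and that of Cyp2c70 without Western replicate 1 or 2 or high-fat replicate 2 or 3 (up to 0.143).

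Some wide differences came with wide spread among mice of one diet and did not pass. Noct, a rhythmic phosphatase, read 7.95, 5.43 and 4.41 on the Western diet against 8.44, 10.64 and 8.60 on the high-fat diet (adjusted p = 0.078). Mfsd2a, a lysophosphatidylcholine carrier, read 8.04, 8.29 and 8.74 against 9.58, 10.91 and 10.29 (adjusted p = 0.21), and Alas1, which starts heme synthesis, 9.58, 11.25 and 9.12 against 12.47, 12.48 and 10.45 (adjusted p = 0.22). The values of Noct and Mfsd2a did not overlap between diets, and those of Alas1 did.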
